A study of Homo sapiens with 12 samples.

Results

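Aminoacyl-tRNA synthetases are the enzymes that join each amino acid to its transfer RNA, and *MARS1* encodes the cytosolic enzyme for methionine. The 36 genes described here were chosen by family membership from 59094 genes with a position on chromosomes 1 to 22 and X. They comprise 18 genes for cytosolic enzymes, 16 for mitochondrial ones and 2, *GARS1* and *KARS1*, whose product serves both compartments. For each gene, peaks of accessible chromatin were taken from the RefSeq gene span on GRCh38, extended by 5 kb on both sides, and were placed at the gene start, the far end (each within 1 kb) or the body between them.

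Open chromatin was mapped by ATAC-seq, which uses the transposase Tn5 to cut and tag accessible DNA, in MIAPaCa2, an established line of human pancreatic ductal adenocarcinoma. The 4 groups of 3 libraries were parental cells without treatment, parental cells treated with oxamate (LDHA inhibitor in the labels, for lactate dehydrogenase A), oxamate-resistant cells without treatment and oxamate-resistant cells treated with oxamate. The resistant cells were a polyclonal population, per the study's methods, selected by continued culture of the parental line in oxamate, and both phenotypes were grown in the same medium apart from oxamate. Cells without treatment received phosphate-buffered saline, per the same methods. Whether untreated resistant cells had been kept off oxamate beforehand is not stated. No source states that replicates came from separate cultures, so p-values measure the spread between these libraries only, which may be technical.

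Cytosolic synthetases supply protein synthesis in the cytoplasm and their mitochondrial counterparts supply translation inside the organelle. Several cytosolic members, *MARS1* among them, are held together in the multi-synthetase complex. Under amino acid shortage or stress of the endoplasmic reticulum, the transcription factor ATF4 binds composite elements shared with C/EBP proteins and induces many of the cytosolic genes.

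That element was looked for in the promoters, and its matches are shown because *MARS1* is among the genes that carry them. RefSeq promoter sequences (GRCh38.p14, 250 bases before to 50 after the start) were held for 30 of the 36 genes, and *AARS2*, *LARS1*, *TARS3*, *VARS1*, *VARS2* and *YARS1* had none. Searched on both strands, the letters TGATGNAA occurred in 6 of the 30 promoters, against 2.52% of 15811 protein-coding promoters. Of 13 members listed as ATF4 targets from general knowledge, 10 had a promoter sequence and 5 of these had the letters, against 1 of 20 other genes. The 6 sites are shown 5′ to 3′ on the gene's strand, with the matched letters in capitals.
AARS1: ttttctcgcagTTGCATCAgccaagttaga
CARS1: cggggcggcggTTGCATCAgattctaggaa
IARS1: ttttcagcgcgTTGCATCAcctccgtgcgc
MARS1: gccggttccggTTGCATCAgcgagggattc
NARS1: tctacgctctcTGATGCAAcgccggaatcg
YARS2: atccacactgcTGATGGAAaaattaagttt

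The *MARS1* stretch lies at chr12:57488053-57488082 on the plus strand, and its match begins 4 bases before the annotated start and runs across it. The others are on the minus strand: *AARS1* at chr16:70289675-70289704, *CARS1* at chr11:3057407-3057436, *IARS1* at chr9:92293692-92293721, *NARS1* at chr18:57621804-57621833 and *YARS2* at chr12:32756076-32756105. Matches in *CARS1* and *IARS1* began 2 and 13 bases before the start, that in *NARS1* at base 15 after it, and those in *AARS1* and *YARS2* 187 and 197 bases before it. A peak covered the whole printed stretch in 12 of 12 libraries for *AARS1*, *CARS1*, *IARS1*, *MARS1* and *NARS1*, and in 11 of 12 for *YARS2*. The ETS letters CCGGAAG were found in 15 of the 30 promoters, against 14.1% of protein-coding ones, and the CCAAT letters in 16, against 36.4%. The E-box letters CACGTG were in 4 (8.82% of protein-coding promoters), the GC-box letters GGGCGG in 20 (58.3%) and the NRF1 letters GCATGCGC in 2 (4.28%), all on both strands and allowing overlaps with other matches. The median GC content was 62.0% in the members' promoters and 62.7% in protein-coding ones.

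The lists of peaks differed between groups in ways that reach every gene. They held 45748 to 62414 peaks per library on the chromosomes used. Peaks covered 13.8 to 19.4 Mb in treated parental libraries, 20.7 to 25.5 Mb in untreated parental, 25.6 to 33.7 Mb in untreated resistant and 21.3 to 30.7 Mb in treated resistant libraries. The minimum width of a peak, which peak calling takes from fragment length, was 67 to 87 bp in parental and 94 to 124 bp in resistant libraries, so phenotype and fragment length cannot be told apart. Depth is not given in the lists, and a relative depth estimated from the commonest pair of fold and p-value in each list ran from 1.00 to 2.77, with treated parental libraries at 1.66 to 2.77 and treated resistant ones at 1.00 to 1.13. As a check of the labelled cells, *KRT8*, *KRT18*, *VIM* and *CD44* had a peak at a gene end in 12 of 12 libraries. The peak at the *KRT8* start was the same as that at the lower end of *KRT18*. At its higher end *KRT18* had a separate peak at 2.395 to 3.593 fold. *KRT19* had a peak in up to 9 libraries and *KRT7* in 1. Of 11 markers of other cell types, 7 had none in any library, and *APOA1*, *SYP* and *COL1A1* had one in 12.

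Nearly all synthetase genes had an accessible start in every library, treated or not. Of the 30 genes with an annotated strand, 29 had a peak within 1 kb of the start in 12 of 12 libraries (96.7%), against 55.7% of 15811 protein-coding genes. The exception was *FARS2*, the mitochondrial enzyme for phenylalanine, with no peak at either end of its 521650-bp span in any library. Its annotated promoters lie 11073 bp or more inside that span, beside the start of *LYRM4*, and a region there had a peak in 12 of 12 libraries at 5.00 to 7.32 fold. Of the 6 genes without a strand, *AARS2*, *LARS1*, *TARS3*, *VARS1* and *YARS1* had a peak at the higher end of the span, and *VARS2* at the lower end, in 12 of 12 libraries. Several of these peaks are shared: 10 of the 35 genes with such a peak had the start of another protein-coding gene within 1 kb. *HARS1* and *HARS2*, the cytosolic and mitochondrial enzymes for histidine, start 85 bp apart in opposite directions under 1 peak, and *KARS1* starts 108 bp from *TERF2IP*.

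The fold of these peaks varied among members. The deposited lists of broad peaks give no highest point, so a fold belongs to a whole called peak and is not a height. The deposited fold of a peak is its enrichment over local background, and the median over 12 libraries of the strongest start peak ran from 4.55 to 12.2, with a median of 7.94 over the 35 genes and 6.50 over all 16132 gene ends with a peak in every library. *TARS3*, a second cytosolic threonine enzyme, *RARS2*, the mitochondrial arginine enzyme, and *LARS1*, the cytosolic leucine enzyme, were highest with medians of 12.2, 11.0 and 10.5. *CARS2*, the mitochondrial cysteine enzyme, *SARS1*, for serine, and *IARS2*, the mitochondrial isoleucine enzyme, were lowest with 4.55, 4.72 and 4.85. The *CARS2* value was measured at the end of its gene span, 899 bp from the start of *ING1*. Its annotated promoters lie 7007 bp or more inside the span, where a separate peak stood at 7.40 to 9.46 fold. Cytosolic and mitochondrial genes overlapped throughout, with medians of 8.04 over 18 genes and 8.03 over 15. *MARS1* ranked 14 of 35 at 8.31, higher than 80.4% of all gene ends.

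**Figure D1:**
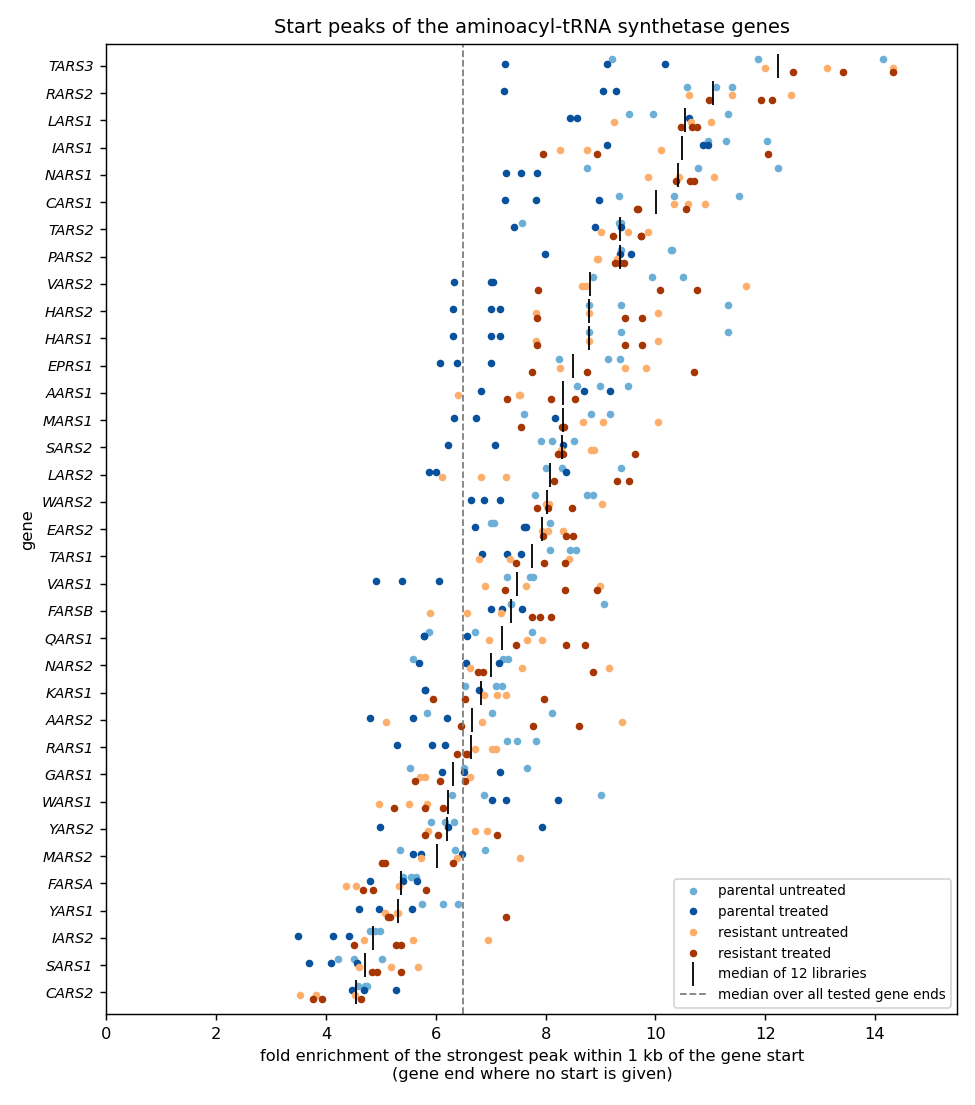
Fold enrichment (x axis, linear) of the strongest peak within 1 kb of the start of 35 synthetase genes (rows, ordered by median), 1 point per library coloured by group, with a black tick at the median of 12 libraries and a dashed line at the median of all 16132 gene ends. Medians run from 4.55 for *CARS2* to 12.2 for *TARS3*, and *MARS1* lies at 8.31. The *CARS2* value is from the end of its gene span near *ING1*, not from its annotated promoters.

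Far ends and bodies were less often accessible and varied more. Of the 30 genes with a strand, 12 had a far-end peak in at least 1 library and 2, *AARS1* and *HARS2*, had one in 12 of 12. These shares, 6.67% in 12 libraries and 60% in none, stood beside 6.7% and 71.7% of protein-coding far ends. Those 2 regions lay within 1 kb of the promoters of *EXOSC6* and *ZMAT2*, and that of *TARS2*, in 11 of 12, within 1 kb of the promoter of *ECM1*. *MARS1* had a far-end peak in 9 libraries, *WARS1* in 8, *GARS1* and *HARS1* in 7, *TARS1* in 5, *IARS1* and *MARS2* in 2, and *RARS1* and *YARS2* in 1. In the body, 9 of the 36 genes had a peak in 12 of 12 libraries, 22 in some and 5 in none. That is 25% in 12 libraries and 13.9% in none, against 29.7% and 29.6% of protein-coding bodies. Between 12 and 20 of the 36 bodies had a peak in each treated parental library, and between 17 and 23 in each library of the other groups. Among protein-coding bodies the shares were 39.95% to 47.8% and 44.4% to 51.55%, so treated parental lists were low over all genes too. The plot of peak presence by place shows these counts.

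**Figure D2:**
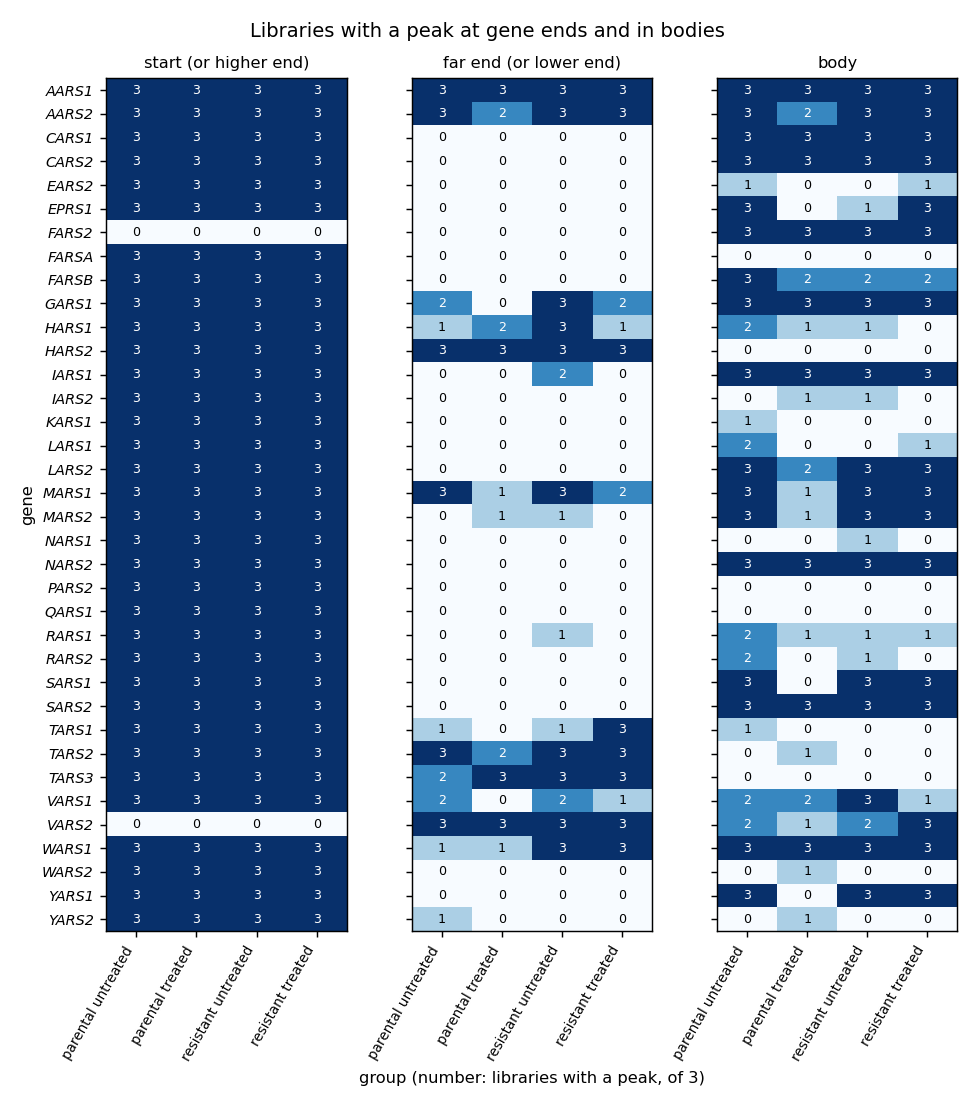
Number of libraries, of 3 in each group (columns), with a peak at the start, at the far end and in the body of the 36 genes (rows); for the 6 genes without a strand the higher end stands in the left panel and the lower end in the middle panel. Starts are at 3 of 3 in all groups except for *FARS2* (and for *VARS2*, whose peak is at the lower end), whereas far ends and bodies vary.

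*MARS1* carried peaks in 6 places of its window. The start peak (chr12:57487652-57488445 over all libraries), where the span of *ARHGAP9* overlaps that of *MARS1*, was present in 12 of 12 libraries. An end of *ARHGAP9* lies 756 bp from the *MARS1* start, and with no strand given for *ARHGAP9* that end may be its start. The fold of the start peak was 7.60, 8.83 and 9.16 in untreated parental libraries, 6.74, 8.17 and 6.33 in treated parental, 9.04, 8.69 and 10.1 in untreated resistant, and 8.30, 7.56 and 8.33 in treated resistant. Group means were 8.53 ± 0.821, 7.08 ± 0.966, 9.26 ± 0.708 and 8.06 ± 0.436 (SD, n = 3), and treated and untreated values overlapped in parental but not in resistant cells. A second region in the body (chr12:57491459-57491684) was called in 7 libraries and in 0 of 3 treated parental ones, another (chr12:57503949-57504265) in 4 and again in no treated parental library, and the last, 10284 bp from the start, in 1.

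Toward the far end, a broad region (chr12:57514769-57516724) was called in 3 of 3 libraries of every group except treated parental, where it was called in 1. The far end of *MARS1* overlaps the far end of *DDIT3*, which encodes the stress factor CHOP and runs on the opposite strand. The region's peaks were low, at 2.28 to 2.95 fold, and up to 1820 bp wide. Within 1 kb of the far end they covered 759, 264 and 762 bases in untreated parental libraries, 0, 12 and 0 in treated parental, 1073, 562 and 897 in untreated resistant, and 839, 0 and 260 in treated resistant. The treated parental values lay below all untreated parental and untreated resistant ones, whereas treated resistant values overlapped both of these groups and the treated parental group. Within 500 bp of the far end a peak was listed in 3 of 3 untreated and 0 of 3 treated parental libraries. Beyond the far end, a region (chr12:57520120-57521191) at the starts of *DDIT3* and *MBD6* was called in 12 of 12 libraries at 3.36 to 4.79 fold.

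**Figure D3:**
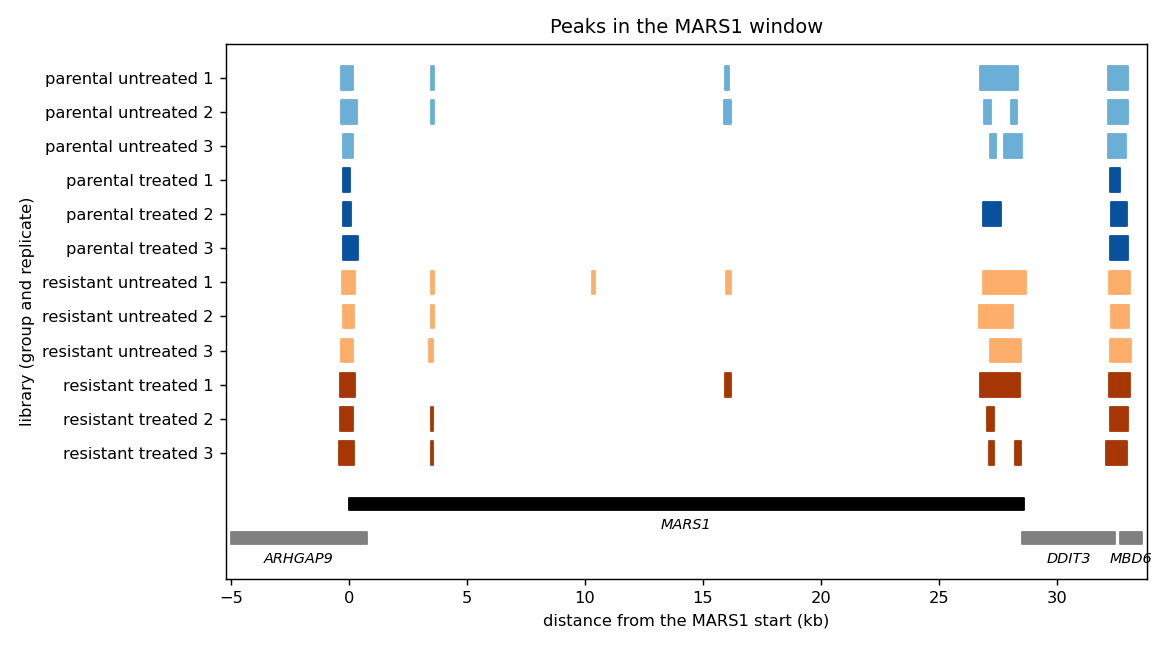
Peaks in the *MARS1* window (x axis, distance from its start in kb) in each of 12 libraries (rows, coloured by group), with spans of *MARS1* and its neighbours below, cut at the window's edges. The start peak and the peak at 32 kb near the *DDIT3* start are in every row, and the broad region near 27 kb is in 1 of 3 treated parental rows and 9 of 9 others.

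The question whether oxamate or resistance shifted accessibility at *MARS1* was tested on single values by two-sided exact permutation of labels within strata (400 assignments). The study had displayed *MARS1* as an example of changed accessibility in these data, and its far-end peaks were known from an earlier look. The p-values are therefore not those of a gene and place chosen independently of the data. Bases covered in the whole window were 3265, 2516 and 2222 in untreated parental libraries, 720, 1709 and 1365 in treated parental, 3744, 2800 and 2903 in untreated resistant, and 3502, 1743 and 2179 in treated resistant. Every treated parental library lay below every untreated library. With both phenotypes averaged, treated minus untreated was -1039 bases (exact permutation p = 0.025, adjusted p = 0.05 over 6 tests). At the far end the difference was -534 bases (exact permutation p = 0.025, adjusted p = 0.05), and for the fold at the start it was -1.33 (exact permutation p = 0.02, adjusted p = 0.05). None of the 3 adjusted values was under 0.05. The fold tested here was the deposited one, with no normalisation between libraries. With the libraries put on one distribution of values, the log2 difference at the start was smaller in parental cells. It was -0.02 ± 0.10 (SE) for treatment in parental cells and -0.24 ± 0.10 for treatment in resistant cells. Among peaks with a deposited -log10 q of at least 3, which keeps 1 of the 13 far-end peaks, the treatment difference turned to 55.3 bases in the window (exact permutation p = 0.905) and 139.8 at the far end (exact permutation p = 1.00). Resistant minus parental was 846 bases in the window (exact permutation p = 0.04, adjusted p = 0.06), 306 bases at the far end (p = 0.08, adjusted p = 0.08, exact permutation) and 0.855 for the fold at the start (p = 0.08, adjusted p = 0.08, exact permutation). Treated parental lists also covered the fewest bases over the whole genome. As a share of all bases a library's peaks covered, the treatment difference in the window was -29.0 bases per Mb covered (exact permutation p = 0.02) and the phenotype difference 8.35 bases per Mb covered (exact permutation p = 0.385). Without untreated resistant replicates 1 or 3 or treated resistant replicates 2 or 3, the exact permutation p of the treatment difference in the window rose to between 0.05 and 0.065.

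**Figure D4:**
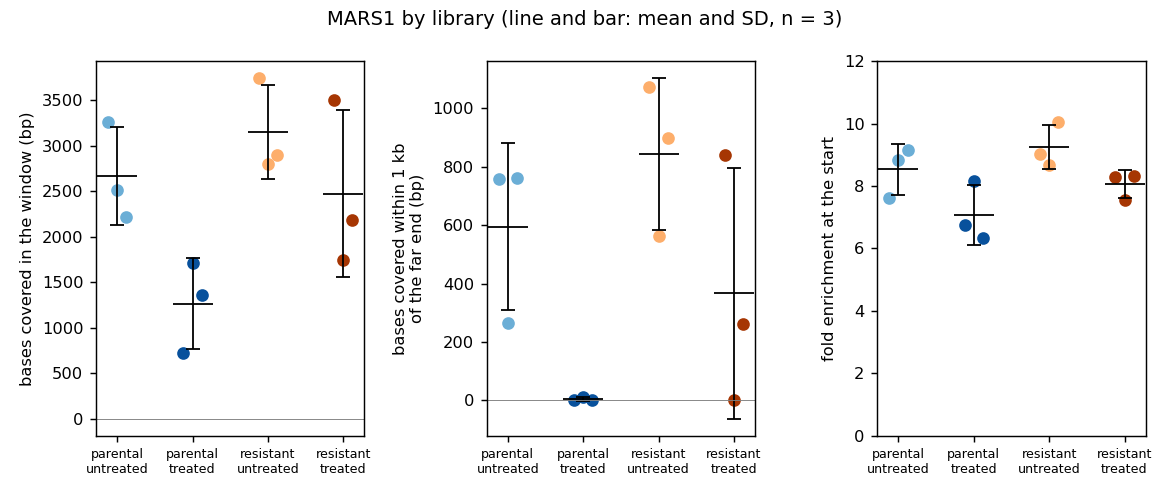
*MARS1* values per library (points) with the mean and SD of 3 libraries in each group: bases covered in the window, bases covered within 1 kb of the far end, and fold enrichment at the start (linear axes). Treated parental libraries lie at 720 to 1709 bases in the window and at 0 to 12 bases at the far end.

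The *MARS1* window held 425 to 925 covered bases per library that lay 1 to 5 kb beyond its far end, at the starts of *DDIT3* and *MBD6*. With these bases, and with no scaling to span length, *MARS1* ranked 6 of 36 in the family by the median of 2369 covered bases. After centring each library at its median over 32582 genes, limma on log2(bases + 100) gave a difference of -0.62 ± 0.23 (SE) for treatment in parental cells (adjusted p = 0.264) and -0.30 ± 0.23 in resistant cells (adjusted p = 1.00). Larger falls for treatment in parental cells were fitted for *AARS2* at -0.86 ± 0.24 (adjusted p = 0.163) and *LARS2* at -0.76 ± 0.28 (adjusted p = 0.255), mitochondrial enzymes for alanine and leucine. *AARS2* covered 1597, 1652 and 1165 bases in untreated and 421, 498 and 679 in treated parental libraries, with no overlap. No member passed the test in any contrast of this fit, although 10 had an unadjusted p under 0.05 for treatment in parental cells, 0 for treatment in resistant cells, 4 for phenotype in untreated cells, 12 for phenotype in treated cells and 2 for the interaction. Of all 32582 genes, 5107, 1129, 2591, 8574 and 2720 had an unadjusted p under 0.05 in these contrasts. Over all genes the same limma fit called 0.513%, 0.0123%, 0.301%, 3.6% and 0.0215% after adjustment.

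Before centring, window coverage moved with the totals of the lists. Without centring, limma called 7944 windows of all genes higher and 180 lower between treated phenotypes, against 665 and 508 with it, and the median of all genes lay at 0.56. For treatment in parental cells it called 43 higher and 1121 lower, against 56 and 111, with a median of -0.41. Coverage was lower in every treated than in every untreated parental library for 17 of 36 members, *MARS1* included, against 30.8% of all genes, and higher in every treated resistant than every treated parental library for 22, against 44.1%. It was higher in every untreated resistant than every untreated parental library for 10 members (16.7% of all genes) and lower for *LARS1* (1.11%), and lower with treatment in resistant cells for *VARS1* (4.78%). In the centred fit the largest difference for treatment in resistant cells was -0.49 ± 0.24 for *AARS2* (adjusted p = 1.00), for phenotype in untreated cells -0.63 ± 0.24 for *EPRS1*, the enzyme for glutamate and proline (adjusted p = 0.525), for phenotype in treated cells 0.93 ± 0.28 for *LARS2* (adjusted p = 0.0787) and for the interaction 0.96 ± 0.29 for *GARS1*, the glycine enzyme (adjusted p = 0.441).

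Start peaks were compared after quantile normalisation of log2 fold between libraries, with limma over the 16132 gene ends. At *MARS1* no contrast passed: the difference was -0.02 ± 0.10 (SE, adjusted p = 0.947) for treatment in parental cells, -0.24 ± 0.10 (adjusted p = 1.00) for treatment in resistant cells, 0.12 ± 0.10 (adjusted p = 0.583) for phenotype in untreated cells and -0.10 ± 0.10 (adjusted p = 0.488) for phenotype in treated cells. The normalisation puts every library on one distribution of values, so a shift common to all genes does not remain in these differences. The members whose normalised start strength was most like that of *MARS1* over 12 libraries were *IARS2* (Pearson r = 0.571), *KARS1* (r = 0.501) and *WARS2* (r = 0.453), values that share library effects. With group means removed they were 0.326, 0.527 and 0.330.

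Between phenotypes in treated cells, 5 of 35 members passed the limma test for the start peak at an adjusted p under 0.05, against 17.9% of all gene ends. At an unadjusted p under 0.05 there were 12 of 35 members and 5613 of 16132 gene ends, so the members' counts lay near the background. All 5 were lower in resistant cells, where 9.81% of all gene ends were called lower; the medians were -0.08 over members and -0.00 over all. Over all gene ends 1303 were called higher and 1582 lower, but 1418 and 264 when the percentile of a peak in its own list replaced fold, and then *LARS1*, *NARS1*, *RARS2* and *VARS1* were called higher and *WARS1* lower. That percentile scale moved the median of all gene ends by 0.42, and for treatment in parental cells it gave 2 higher and 12 lower, against 12 and 3 with fold.

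*WARS1*, the cytosolic tryptophan enzyme, had the largest difference. Its start peak had folds of 7.02, 8.23 and 7.28 in treated parental and 5.23, 5.80 and 6.12 in treated resistant libraries, with no overlap. In untreated cells the folds were 6.30, 6.88 and 9.01 in parental and 4.97, 5.84 and 5.52 in resistant libraries, again with no overlap. The normalised difference was -0.70 ± 0.14 (SE, adjusted p = 0.0072) in treated and -0.44 ± 0.14 (adjusted p = 0.19) in untreated cells, and the interaction did not pass (adjusted p = 0.737). The peak also covers the start of *WDR25*, 158 bp away, and cannot be assigned to 1 of these genes. Covered bases in the *WARS1* window went the other way, without passing the limma test. Resistant minus parental was 0.77 ± 0.26 (adjusted p = 0.101) in treated and 0.60 ± 0.26 (adjusted p = 0.605) in untreated cells. A far-end peak of *WARS1* was listed in 6 resistant and 2 parental libraries.

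*CARS2* showed folds of 5.27, 4.69 and 4.48 in treated parental and 3.77, 4.64 and 3.93 in treated resistant libraries, which overlapped, and a normalised difference of -0.53 ± 0.12 (adjusted p = 0.00994). The end of its gene span lies 899 bp from the start of *ING1*, and the annotated promoters of *CARS2* lie 7007 bp or more inside the span. There a separate peak (chr13:110705803-110706645) stood at 7.40 to 9.46 fold in 12 of 12 libraries. At annotated promoters, an alternative chosen after seeing the data, the difference for *CARS2* was -0.13 (limma, adjusted p = 0.282), so the call rests on the peak near *ING1*.

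*GARS1*, the glycine enzyme of both compartments, had folds of 6.51, 7.16 and 6.12 in treated parental and 5.62, 6.53 and 6.08 in treated resistant libraries, which overlapped before normalisation. The normalised difference was -0.44 ± 0.11 (adjusted p = 0.0177). *MARS2*, the mitochondrial methionine enzyme, had overlapping folds of 6.48, 5.74 and 5.58 against 5.08, 5.02 and 6.32, and a difference of -0.45 ± 0.13 (adjusted p = 0.0283). In untreated cells *MARS2* differed by 0.05 ± 0.13 (adjusted p = 0.874). *FARSA*, a subunit of the cytosolic phenylalanine enzyme, had overlapping folds of 5.66, 5.40 and 4.81 against 4.67, 5.83 and 4.86, and a difference of -0.37 ± 0.11 (adjusted p = 0.0285). The difference of its partner subunit *FARSB* was -0.18 ± 0.09 (adjusted p = 0.184).

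Peak width moved with these calls. The strongest start peak was wider in every treated resistant than in every treated parental library for all 5 genes, and for 17 of 35 members against 54% of all gene ends. *WARS1* peaks were 566 to 640 bp wide in treated parental and 1368 to 1829 bp in treated resistant libraries. In parental cells the peak was narrower in every treated than every untreated library for 13 of 35 members, against 31% of all gene ends. Because a fold belongs to a whole called peak, a lower fold was not separated here from a wider peak. The part of width in the fold differences was not tested. Without treated resistant replicate 1 only *WARS1* stayed below the threshold (adjusted p = 0.0381); without treated parental replicate 1 *FARSA* and *MARS2* lost the call, without treated parental replicate 2 or treated resistant replicate 3 *FARSA* and *GARS1*, and without treated parental replicate 3 or treated resistant replicate 2 *MARS2*.

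**Figure D5:**
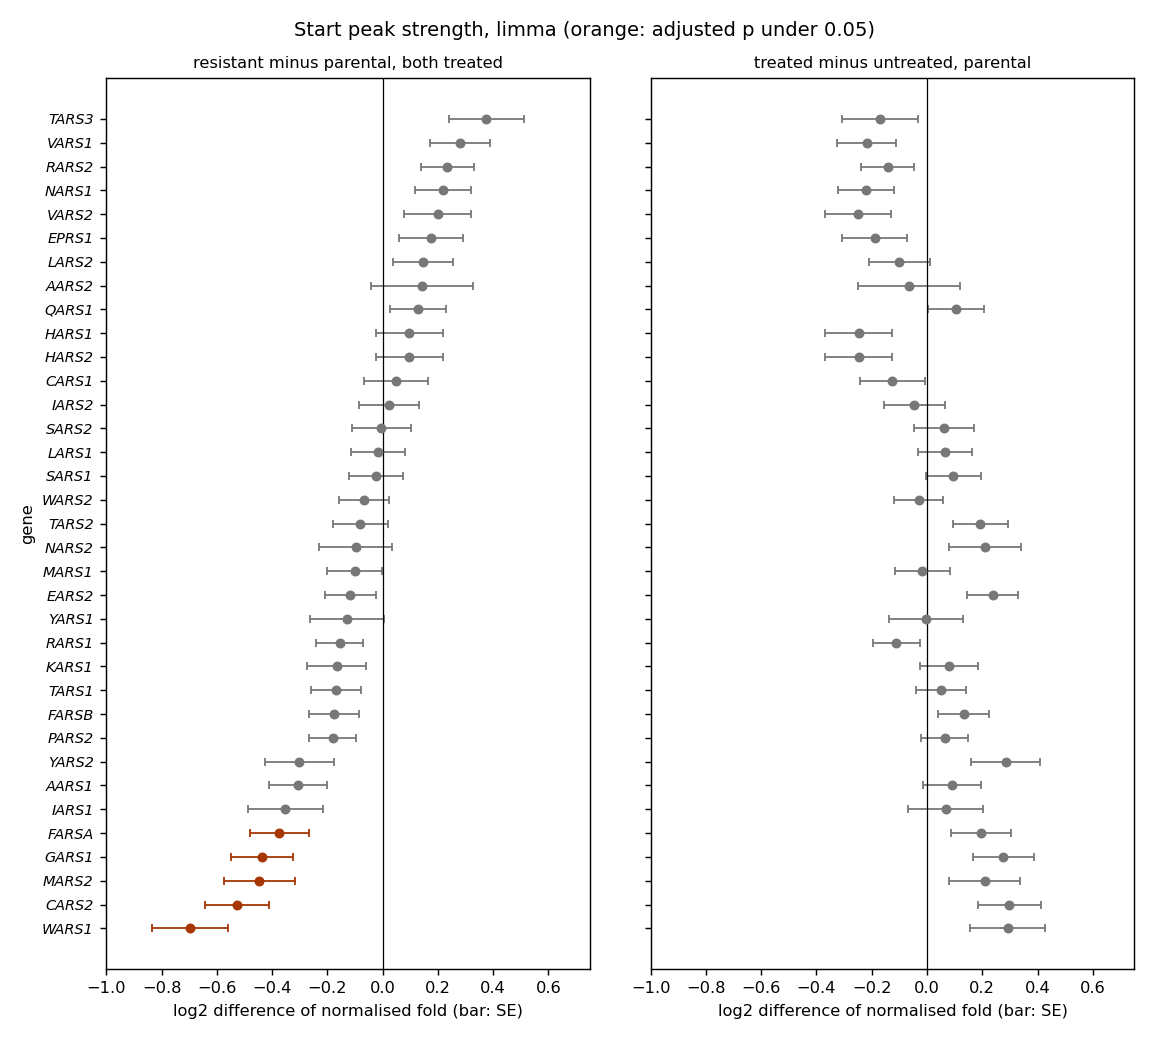
Log2 difference of normalised start fold (points, with SE bars) for 35 synthetase genes between treated resistant and treated parental cells (left) and between treated and untreated parental cells (right), in orange where limma's adjusted p was under 0.05. The 5 called genes, *WARS1* to *FARSA*, lie at -0.70 to -0.37 on the left, and none is called on the right.

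No member start was called in the other contrasts of this limma fit. At an unadjusted p under 0.05 there were 6 members for treatment in parental cells, 4 for treatment in resistant cells, 6 for phenotype in untreated cells and 2 for the interaction. Over all gene ends 0.093%, 0%, 0.124% and 0% were called, and 2620, 478, 2455 and 1344 had an unadjusted p under 0.05. The largest member differences were 0.30 ± 0.12 for *CARS2* with treatment in parental cells (adjusted p = 0.235), 0.40 ± 0.11 for *LARS2* with treatment in resistant cells (adjusted p = 1.00), -0.44 for *WARS1* between untreated phenotypes, given above, and 0.50 ± 0.155 for *LARS2* in the interaction (adjusted p = 0.486). *LARS2* had folds of 6.82, 6.12 and 7.28 in untreated and 9.51, 8.15 and 9.30 in treated resistant libraries, with no overlap.

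By role, the signs of the fitted differences between treated phenotypes are given as a description, most of them of genes not called. Over the 35 members 13 differences were positive and 22 negative with fold, but 23 and 12 on the percentile scale, with a median of 0.34, so these signs depend on the scaling. Of 13 ATF4 targets, 4 had positive and 9 negative differences in resistant against parental cells (median -0.10), with *GARS1* and *WARS1* called. Of the 22 other members with a tested start, 9 were positive and 13 negative (median -0.07), with 3 called. In the multi-synthetase complex, 2 of 7 differences were positive and 5 negative (median -0.10), with none called. Class I enzymes, *MARS1* among them, had 7 of 18 positive and 11 negative (median -0.08), and class II enzymes 5 of 16 positive and 11 negative (median -0.09). Among 19 charging partners, a list of complex scaffolds, elongation factor subunits, transport and repair factors chosen with earlier results known, 18 had a tested start. Over all 16132 gene ends 1303 were called higher and 1582 lower. Of the partners, 3 were called higher, *DTD1*, which removes D-amino acids from tRNA (0.41 ± 0.10), *PSTK* of the selenocysteine pathway (0.53 ± 0.14) and *QRSL1*, a subunit of the mitochondrial amidotransferase (0.42 ± 0.11), and 2 lower, the tRNA exporter *XPOT* (-0.46 ± 0.12) and *EEF1A1* (-0.34 ± 0.115), with a median of 0.20. None of the partners was called in any other contrast.

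Presence was also compared place by place. In parental cells 3 of 78 member places had a peak in 3 of 3 untreated and 0 of 3 treated libraries, the bodies of *EPRS1*, *SARS1* and *YARS1*, the last for tyrosine, against 1.43% of 52000 places of all genes; none was gained (0.162%). In treated cells 4 of 74 places had a peak in 3 of 3 resistant and 0 of 3 parental libraries, those 3 bodies and the far end of *TARS1*, the cytosolic threonine enzyme, against 2.12%; none was lost (0.411%). No member place was gained or lost with treatment in resistant cells (0.201% and 0.286% of all places) or between untreated phenotypes (0.652% and 0.334%). The *SARS1* body split came from its start peak, which was 916 to 1080 bp wide in treated parental libraries and ended within 1 kb of the start. In the others it was 1384 to 1635 bp wide and ran past 1 kb, save untreated parental replicate 3, where a separate 116-bp peak lay there. The *EPRS1* split came from 7 weak regions, none in more than 3 libraries. By a two-sided Fisher exact test of 6 against 6 libraries on the 4085 places called in 5 to 7 libraries, 0% were called by phenotype and 0% by treatment, with 363 and 68 at an unadjusted p under 0.05 and none of these among the 6 member places. When peaks under a -log10 q of 3 were dropped, 161 of 3685 places were called higher and 2 lower in resistant cells, none of them among 8 member places.

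Single regions were also compared, and those named here were chosen after their values were seen. Merged over the 12 lists, the members' windows held 269 regions, of which 56 were called in 12 libraries (20.8%, against 13.6% of all 178040 regions) and 136 in 1 (50.6%, against 59.5%). In the body of *YARS1* a region (chr1:32786743-32787562) was called in 9 of 9 libraries of the other groups and 0 of 3 treated parental ones, at 3.64 to 5.43 fold. It was the 1 member region lost with treatment in parental cells, where 1.21% of all regions were. It was also 1 of 5 gained when treated resistant cells were set against treated parental ones (2.07% of all regions), with regions in the *CARS2* and *LARS2* bodies, at the *TARS1* far end and beyond the far end of *RARS1*. The *RARS1* region (chr5:168524258-168524740) was called in 3 of 3 treated resistant libraries and no other, and was the 1 gained with treatment in resistant cells (0.239% of all regions). The far-end region of *HARS1* was in 3 of 3 untreated resistant and 0 of 3 untreated parental libraries, the 1 gained there (0.652%).

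The *CARS2* region (chr13:110680969-110681372), 32150 bp inside the gene span from its start, was among those with the highest fold. It was absent from 6 of 6 parental lists and from untreated resistant replicates 1 and 2, and present at 12.7 fold in untreated resistant replicate 3 and at 9.43, 8.99 and 25.9 fold in treated resistant replicates 1, 2 and 3. A region in the *IARS1* body (chr9:92275470-92275761) was the other one above 15 fold in any library. It was at 30.7 fold in untreated parental replicate 2, 25.97 in treated parental replicate 2, 6.78, 7.80 and 14.5 in untreated resistant libraries and 9.32 and 8.40 in treated resistant replicates 1 and 3, and absent from the other 5 lists. Replicates of 1 group thus differed in presence at both regions.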

How the data were processed

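ATAC-seq peak lists of 12 MIAPaCa2 libraries (4 groups of 3) were analysed. Per the submitters' processing notes and the study's methods, the authors aligned reads to hg38 with Bowtie2 2.1.0 and called broad peaks in each library with MACS2. The deposited columns held the fold enrichment of each peak, its −log10 p and −log10 q, and a score that is 10 times −log10 q, rounded down, and was not used. Reads per peak are not in these lists, so the study's read-count test (DESeq2) was not run and the depth of each library is unknown. Relative depth was the Poisson background that the commonest pair of fold and −log10 p in a list implies, divided by its smallest peak width.

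Of 677901 peaks, 0.892% lay outside chromosomes 1 to 22 and X and were set aside, and the smallest −log10 q was 1. Gene spans and promoters came from RefSeq tables of GRCh38.p14. A gene start was taken from the strand of its promoter, and both ends were kept where no strand was given. Overlapping peaks of the 12 lists were merged into regions.

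Limma 3.58.1 in R 4.3.3 was fitted to all 4 groups together, on log2 fold of the strongest start peak (quantile normalised, gene ends with such a peak in 12 of 12 libraries) and on log2(covered bases + 100) in the span with 5-kb flanks (median centred, genes covered in at least 3 libraries). Benjamini-Hochberg adjustment ran over all genes within each contrast, at a threshold of 0.05. *MARS1* values were tested by exact permutation within strata (400 assignments, smallest p 0.005), and presence by two-sided Fisher exact tests. The scripts were tested on simulated data.

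Genes were named where they were *MARS1*, passed a test, split 3 of 3 against 0 of 3, lacked a start peak or a promoter entry, had the 3 highest or lowest start folds or the largest difference in a contrast, or were the 3 most like *MARS1*. The value of 1 marker gene is not reported here. Members, lists and tests were chosen with earlier results of these data known. Alternatives changed the strength measure, normalisation, pseudocount, filter, peak threshold, number and width of peaks, distances, genes tested, pairing and libraries. The alternative with annotated promoter starts was chosen after seeing the data.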

Additional observations from a re-analysis of the deposited data

How the results depend on the processing

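Of the 5 members with a start call between treated phenotypes, 1 remained with −log10 q in place of fold, and between 1 and 7 members were called when single libraries were left out. *WARS1* kept an adjusted p (limma) of 0.00342 to 0.0381 under every alternative run. In the window fit, which called no member, 1 was called lower for treatment in parental cells without centring, but 2 higher with −log10 q of at least 3. Between treated phenotypes 2 were called higher in resistant cells with a pseudocount of 1000 bp and 10 higher without centring, but 9 lower with −log10 q of at least 3 and 1 lower without the filter on low values, so the direction turned. Over all genes, calls between treated phenotypes ran from 1050 to 3087 for start peaks and from 493 to 8124 for windows, where calls for treatment in parental cells ran from 95 to 1164. Leaving out single libraries gave 727 to 3230, 235 to 1217 and 34 to 275.

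Member places lost with treatment in parental cells fell from 3 to 0 with −log10 q of at least 3 and to 1 with a minimum width, and were 3 to 6 with single libraries left out. Places gained in treated resistant cells were 2 at 500 bp and 4 to 7 with single libraries left out.

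For *MARS1*, the treatment difference reversed with −log10 q of at least 3 to 55.3 bases in the window and 139.8 at the far end, where by construction most far-end peaks are lost. With single libraries left out it was -1296 to -856 bases in the window and -653 to -443 at the far end. The phenotype difference in the window was 625 bases with −log10 q of at least 3, 832 with equal numbers of peaks, 794 with a minimum width and 8.35 bases per Mb covered, each without passing an exact permutation p of 0.05, and 589 to 1029 with single libraries left out. It was 188 to 397 bases at the far end and 0.623 to 1.13 for fold at the start with single libraries left out. Uncalled log2 differences of *MARS1* changed sign: the window interaction to -0.0113 with equal numbers of peaks, the untreated phenotype difference to 0.0483 with a pseudocount of 1000 bp, 0.24 without centring, 0.15 with equal numbers and 0.12 without flanks (-0.0979 to 0.0944 with single libraries left out), treatment in resistant cells to 0.47 with −log10 q of at least 3, and treatment in parental cells at the start to 0.0879 with −log10 q (-0.0888 to 0.0615 with single libraries left out). That of *CARS2* at the start became -0.057 with the percentile. Other causes were not tested.

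Replicate numbers were not used to pair the samples in the main fits. Correlations of deviations between untreated and treated resistant replicates were all positive. They were 0.28, 0.35 and 0.04 at starts and 0.10, 0.17 and 0.05 in windows. In the other contrasts they ran from -0.19 to 0.06. With a replicate block, 5 members were called at starts between treated phenotypes and 0 in windows. Over all genes, 1234 gene ends were then called higher and 1469 lower, and 493 windows were called (1173 without the block). The *MARS1* treatment differences each had an exact permutation p of 0.0312 with the block, the smallest that its 64 assignments allow.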
